A study of Mus musculus with 16 samples.

Results

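The mitochondrial ribosomal proteins are the nuclear-encoded proteins of the ribosome inside mitochondria. The genes followed here are the protein-coding genes whose symbols start with Mrpl or Mrps, 78 of the 48158 genes of the annotation, and all 78 passed the filter of at least 1 FPKM in at least 2 libraries that left 11790 genes in the tests. FPKM counts fragments per length of transcript and per sequenced library, so levels of different genes are compared per length. Of the 78, 51 encode proteins of the large subunit and 26 proteins of the small subunit. Mrps36 was kept apart, since its protein is now known as a component of the 2-oxoglutarate dehydrogenase complex. Mrps30 and Mrps18a carry small-subunit symbols but belong to the large subunit in the ribosome structures. Processed pseudogenes with such symbols, 5 in all, were left out.

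Mitochondrial ribosomes make only the few proteins that mitochondrial DNA encodes, all of them core subunits of the respiratory chain and the ATP synthase. Their own proteins are made on cytosolic ribosomes from nuclear messages and are then imported, so the amount of a Mrpl or Mrps message on polysomes reflects cytosolic translation. Hepatocytes are rich in mitochondria, and the respiratory subunits made by the organelle must match nuclear-encoded ones such as the Nduf subunits of complex I.

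The groups were hepatocytes of FVB mice given 3,5-diethoxycarbonyl-1,4-dihydrocollidine (DDC), a diet that injures bile ducts and hepatocytes, for 4 weeks, and hepatocytes of FVB mice on normal chow. Cells of both diets were isolated in the presence of cycloheximide, which holds ribosomes on messages. Polyadenylated RNA was sequenced from cytoplasm and from 3 sucrose gradient pools, heavy polysomes with more than 5 ribosomes, light polysomes with 2 to 4, and monosomes with 1. Each of the 8 groups held 2 libraries, 16 in all. The labels do not say that the 2 libraries of a group came from separate animals, so p-values measure the spread between these libraries. Adjusted p-values are from limma on log2(FPKM + 1) with Benjamini-Hochberg adjustment over all genes tested, and a gene was called at an adjusted p under 0.05.

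Libraries held 375145 to 1386166 FPKM in all, with 8313 to 9874 genes at 1 FPKM or more, and the median estimated fragments per library ran from 251 to 16155 over the 78 genes. The 4 chow libraries numbered 1 stood apart in sex-linked genes. They had Xist at 0.0394 to 2.44 FPKM with Eif2s3y and Ddx3y at 0, whereas the other 12 libraries had Xist at 0, Eif2s3y at up to 34.5 FPKM and Ddx3y at 0.195 to 9.98 FPKM. The main counts of calls are therefore also given without those 4 libraries. That fit leaves a single chow library in each pool. In it, calls lost through fewer libraries and calls lost through the libraries left out cannot be told apart. Of the markers of the labelled cell type, 9 hepatocyte genes were found in the files, and Alb was listed at 0 in every group. The summed hepatocyte markers were 11844 to 16572 FPKM in DDC heavy polysomes and 33177 to 36001 FPKM in chow heavy polysomes. In cytoplasm they were 11134 to 17434 FPKM in DDC and 12750 to 17165 FPKM in chow. Serpina1a was listed at 0 in chow in both of these pools but not in DDC. The sums of the diets therefore do not cover the same genes, and hepatocyte content was not read from them. Summed markers of several other cell types, but not of all, were higher in DDC heavy polysomes. Those of red blood cells overlapped there, at 16.8 to 80.6 FPKM in DDC and 42.8 to 63.6 FPKM in chow. The 12 macrophage markers summed to 5032 to 5909 FPKM in DDC heavy polysomes and 297 to 495 FPKM in chow heavy polysomes. The 10 ductal markers summed to 515 to 560 FPKM in DDC heavy polysomes and 98.4 to 128 FPKM in chow heavy polysomes, where 7 of them, Krt19, Krt7 and Epcam among them, were at 0. Their part in the results below was not tested, and in these bulk samples fewer hepatocytes and less RNA per hepatocyte cannot be told apart.

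In cytoplasm the 78 messages were spread widely around no change. Mrpl52, a large-subunit protein found only in mitochondrial ribosomes, had the highest mean level, 110 FPKM over the 4 cytoplasmic libraries with a range of 78.4 to 146 FPKM. Mrps21 followed at 90.9 FPKM (82.4 to 102) and Mrpl12, the stalk protein that docks translation factors, at 88.1 FPKM (83.1 to 98.0). These 3 ranges overlap, so their order is not settled by these libraries. The lowest levels were those of Mrpl1 (6.71 FPKM), Mrpl57 (5.68 FPKM) and Mrpl19 (2.05 FPKM, range 1.36 to 3.08). Together the 78 genes summed to 2396 and 2091 FPKM in DDC cytoplasm and to 2305 and 2556 FPKM in chow cytoplasm, which was 0.537% and 0.559% of the DDC libraries and 0.517% and 0.512% of the chow libraries.

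Between the diets, 6 of the 78 messages fell in DDC cytoplasm and 0 rose, against 9.68% of all genes tested called lower and 12.7% called higher. At an unadjusted limma p under 0.05, 13 were lower and 2 were higher. Shares of all genes at an unadjusted p are not given, here or below, so such counts have no background beside them. The median log2 change was -0.10 over the 78 genes and 0.01 over all genes. The 6 were Mrpl15, Mrpl24, Mrpl9, Mrpl30 and Mrpl13, all conserved large-subunit proteins with bacterial counterparts, and Mrps33 of the small subunit. Mrpl15 had 28.8 and 30.6 FPKM in DDC cytoplasm, against 69.2 and 54.7 FPKM in chow cytoplasm. Both DDC libraries lay below both chow libraries. The log2 change was -1.03 (SE 0.22, adjusted p = 0.00699), the lowest adjusted p of the family in this pool. The other 5 had log2 changes of -0.68 for Mrpl9 to -0.85 for Mrpl24 and Mrpl30, with adjusted p between 0.0276 and 0.0469. None of the 6 calls was kept in all fits without 1 of the 4 cytoplasmic libraries: 0 calls were made without the library numbered 1 of either diet and 1 without the library numbered 2 of either diet. Without the chow libraries numbered 1, 0 calls were made and the median was -0.19.

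More of the 78 messages were called lower in DDC in RNA bound to ribosomes than in cytoplasm. On heavy polysomes 29 of the 78 messages fell and 0 rose, against a background of 10.9% called lower and 13.9% called higher among all genes tested. At an unadjusted limma p under 0.05, 42 were lower and 0 were higher, and 72 of the 78 log2 changes were negative. The median log2 change on heavy polysomes was -0.66, against 0.02 over all genes. Light polysomes gave 31 lower and 0 higher calls (background 13.5% and 16.6%), with a median of -0.60 against 0.01 over all genes, and 39 lower and 0 higher at an unadjusted p under 0.05. Monosomes gave 24 lower calls and 1 higher (background 15.9% and 21%), with a median of -0.36 against 0.04 over all genes. With library totals made equal instead, all genes had a median of 0.29 on heavy polysomes, 0.24 on light polysomes, 0.25 on monosomes and 0.18 in cytoplasm. The family's median minus that of all genes was then -0.45 on heavy polysomes, -0.52 on light polysomes, -0.32 on monosomes and -0.09 in cytoplasm. It was -0.67, -0.62, -0.40 and -0.11 with the deposited scaling. With equal totals the calls were 1 higher and 10 lower on heavy polysomes, 1 and 20 on light polysomes, and 5 and 17 on monosomes. They were 3 and 3 in cytoplasm, where the family's own median turned to 0.09. Shares of all genes called with equal totals or quantile normalization are not given, here or below. The background shares above belong to the deposited scaling.

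**Figure D1:**
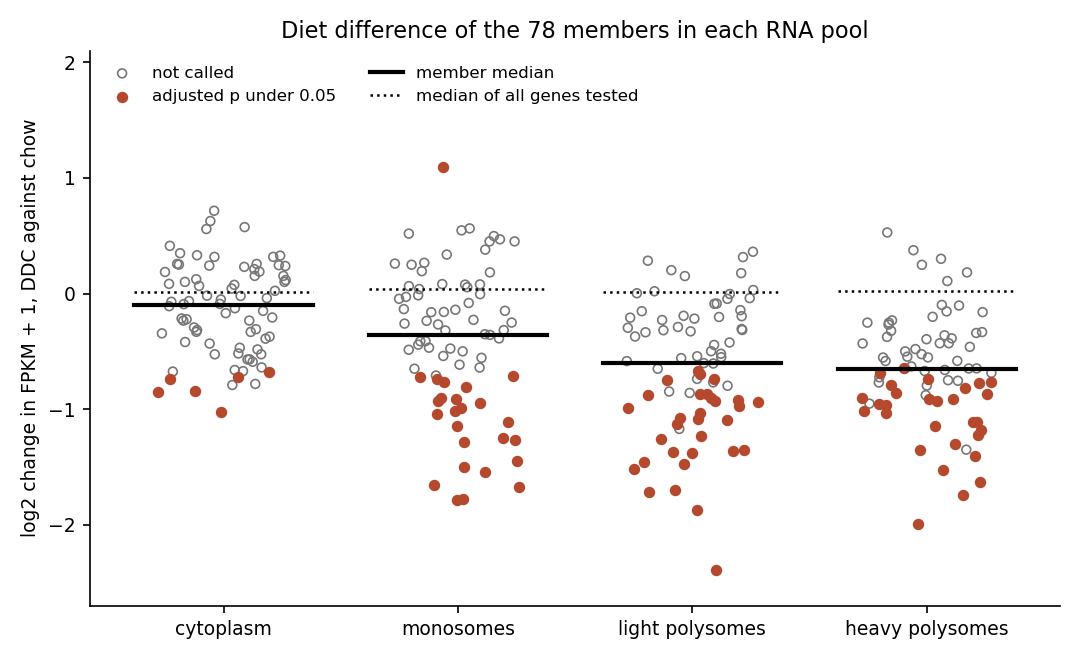
Log2 change of DDC over chow for each of the 78 genes (points) in cytoplasm, monosomes, light polysomes and heavy polysomes; filled points were called by limma at an adjusted p under 0.05. With the deposited scaling the median was -0.10 in cytoplasm, -0.36 on monosomes, -0.60 on light polysomes and -0.66 on heavy polysomes, and with equal library totals the cytoplasmic median turned to 0.09.

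Separation of the libraries followed the same order. Both DDC libraries lay below both chow libraries for 62 of the 78 genes on heavy polysomes, where 26.2% of all genes did so. This held for 59 genes on light polysomes (background 33.9%), for 36 on monosomes (30.6%) and for 35 in cytoplasm (36.1%). In the opposite direction, both DDC libraries lay above both chow libraries for 1 gene on heavy polysomes (background 29.9%), for 4 on light polysomes (36.5%), for 7 on monosomes (34.8%) and for 17 in cytoplasm (38.4%). As shares of the 78, the lower counts were 79.5% on heavy polysomes, 75.6% on light polysomes, 46.2% on monosomes and 44.9% in cytoplasm, and the higher counts were 1.28%, 5.13%, 8.97% and 21.8%. The 1 gene on heavy polysomes was Mrpl16, a conserved large-subunit protein, with 38.8 and 50.1 FPKM in DDC against 29.2 and 31.4 FPKM in chow. It was not called.

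The number of calls depended on which libraries were used. Each fit in this paragraph left a single library in at least 1 group, so replication was lost as well. Without the 4 chow libraries numbered 1, 5 messages were called lower on heavy polysomes (Mrpl30, Mrpl2, Mrpl14, Mrpl13 and Mrpl39), 10 on light polysomes and 14 on monosomes, with medians of -0.68, -0.56 and -0.47. That was 6.41%, 12.8% and 17.9% of the 78, against 6.67%, 7.23% and 12.5% of all genes called lower in the same fit, so on heavy polysomes the share was then near that of all genes. Of single libraries, leaving out the chow heavy polysome library numbered 2 gave 12 lower calls and leaving out DDC heavy polysome library 2 gave 14. On light polysomes, 16 were called lower without the chow library numbered 1 and 18 without DDC library 1, where 1 was called higher. On monosomes, 2 were called higher without the library numbered 1 of either diet. Over the fits without 1 library, the family's median lay between -0.79 and -0.57 on heavy polysomes, -0.78 and -0.44 on light polysomes, -0.59 and -0.16 on monosomes, and -0.19 and -0.05 in cytoplasm.

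In both subunits, more messages were called lower in the ribosome pools than in cytoplasm. Of the 51 large-subunit genes, 22 were called lower on heavy polysomes, 21 on light polysomes, 17 on monosomes and 5 in cytoplasm. Of the 26 small-subunit genes, 6, 9, 6 and 1 were called lower in the same pools. The heavy polysome medians were -0.67 in the large subunit and -0.64 in the small subunit. Of the 30 conserved large-subunit proteins 16 were called lower on heavy polysomes (median -0.75), and of the 21 large-subunit proteins particular to mitochondria 6 were (median -0.58). The corresponding counts in the small subunit were 5 of 16 conserved proteins (median -0.69) and 1 of 10 mitochondria-specific ones (median -0.49), the last near the 10.9% of all genes. The heavy polysome calls were 5 in the large subunit and 0 in the small subunit without the 4 chow libraries numbered 1, with medians of -0.68 and -0.66. Whether these subgroups differ from each other was not tested.

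In all 3 ribosome pools 14 messages fell. They were Mrpl9, Mrpl13, Mrpl15, Mrpl18, Mrpl24, Mrpl27, Mrpl30, Mrpl33, Mrpl36, Mrpl48 and Mrpl52 of the large subunit, Mrps14 and Mrps33 of the small subunit, and Mrps36. Of the 14, 2 were called in the 3 pools without the 4 chow libraries numbered 1, Mrpl13 and Mrpl30, and 2 with equal library totals, Mrpl18 and Mrpl30. With quantile normalization 6 were, without the chow heavy polysome library numbered 2 it was 7, and without DDC heavy polysome library 2 it was 9. Mrpl15, Mrpl18, Mrpl52 and Mrps14 were called in the 3 pools whichever single library was left out. With only the groups compared in the fit, Mrpl15 and Mrpl30 were the 2 called in the 3 pools. With protein-coding transcripts only, 10 of the 14 were, and Mrps14 was not among them. In all, 44 genes were called lower in at least 1 pool and 33 were called in none. The log2 change was below 0 in all 4 pools for 38 genes and above 0 in all 4 for 1, Mrps6, which was called in none of them. The matching shares of all genes were not counted, so these counts over several pools have no background beside them.

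Mrpl30 (ENSMUSG00000026087.11, chromosome 1, 37890477 to 37898535, plus strand, GRCm38) had the largest relative fall of the called genes on heavy polysomes. It encodes a conserved large-subunit protein. On heavy polysomes it had 61.3 and 40.8 FPKM in DDC, against 186 and 220 FPKM in chow. Both DDC libraries were far below both chow libraries, and the log2 change was -1.99 (SE 0.27, adjusted p = 0.000337). On light polysomes the 82.4 and 99.4 FPKM in DDC again lay below the 272 and 322 FPKM in chow (log2 change -1.70, adjusted p = 0.000843). On monosomes the values were 138 and 167 FPKM in DDC and 282 and 407 FPKM in chow (log2 change -1.15, adjusted p = 0.00669, not called without the chow monosome library numbered 2). In cytoplasm they were 36.4 and 35.1 FPKM in DDC and 54.7 and 77.7 FPKM in chow (log2 change -0.85, adjusted p = 0.0441, not called without any 1 of the 4 libraries). The groups did not overlap in any of the 4 pools, and the calls on heavy and light polysomes were kept under every alternative tried.

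Mrpl15 (ENSMUSG00000033845.13, chromosome 1, 4773206 to 4785739, minus strand) fell in all 4 pools as well. On heavy polysomes it had 108 and 102 FPKM in DDC, against 267 and 227 FPKM in chow (log2 change -1.22, SE 0.22, adjusted p = 0.00207). On light polysomes it had 58.4 and 70.4 FPKM in DDC, against 236 and 192 FPKM in chow (log2 change -1.71, adjusted p = 0.00022). On monosomes it had 53.7 and 39.5 FPKM in DDC, against 154 and 145 FPKM in chow (log2 change -1.68, adjusted p = 0.00022). DDC lay lower in each pair of groups with no overlap. The call on heavy polysomes was lost without the 4 chow libraries numbered 1. As for 11 of the 78 genes, under 50% of its summed FPKM was on transcript models annotated as protein-coding.

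Mrpl52 and Mrpl18 show the same direction at very different levels. Mrpl52 had 346 and 366 FPKM in DDC heavy polysomes, against 704 and 754 FPKM in chow heavy polysomes (log2 change -1.03, adjusted p = 0.00347). On monosomes Mrpl52 had 212 and 250 FPKM in DDC, against 600 and 664 FPKM in chow (log2 change -1.45, adjusted p = 0.000316). Mrpl18, a conserved protein that contacts the central protuberance of the large subunit, had 10.6 and 5.83 FPKM in DDC heavy polysomes, against 20.6 and 21.3 FPKM in chow heavy polysomes (log2 change -1.30, adjusted p = 0.00368). The groups were separate in each case. On light polysomes Mrpl18 averaged 26.3 FPKM in DDC and 97.9 FPKM in chow (log2 change -1.87, adjusted p = 0.000358), and on monosomes 33.3 and 29.0 FPKM in DDC, against 80.0 and 100 FPKM in chow (log2 change -1.50, adjusted p = 0.00116). Without the 4 chow libraries numbered 1, neither gene was called on heavy polysomes.

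Mrpl2, Mrpl12 and Mrpl14 were called lower in DDC on heavy polysomes and in no other pool. Mrpl2 encodes a conserved protein beside the peptidyl transferase centre and had 98.3 and 68.0 FPKM in DDC heavy polysomes, against 212 and 209 FPKM in chow heavy polysomes (log2 change -1.35, SE 0.24, adjusted p = 0.0017). In cytoplasm Mrpl2 had 33.8 and 24.0 FPKM in DDC and 30.2 and 34.2 FPKM in chow, so the groups overlapped (log2 change -0.17, adjusted p = 0.669). On monosomes it had 59.7 and 70.7 FPKM in DDC and 61.4 and 73.3 FPKM in chow, again overlapping (log2 change -0.05, adjusted p = 0.902). The diet difference of Mrpl2 on heavy polysomes relative to monosomes was -1.31, with an adjusted p of 0.0636, and relative to cytoplasm -1.18, with an adjusted p of 0.262. Neither difference passed the threshold.

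Mrpl12 and Mrpl14 had higher levels. Mrpl12 had 330 and 209 FPKM in DDC heavy polysomes, against 615 and 526 FPKM in chow heavy polysomes (log2 change -1.11, adjusted p = 0.00931), and the call was lost without the chow library numbered 1 or without DDC library 2. In cytoplasm it had 98.0 and 83.1 FPKM in DDC and 83.1 and 88.2 FPKM in chow, with a log2 change of 0.08 (adjusted p = 0.882). Mrpl14, a conserved protein at the subunit interface, had 325 and 224 FPKM in DDC heavy polysomes, against 720 and 846 FPKM in chow heavy polysomes (log2 change -1.53, adjusted p = 0.00444). In cytoplasm Mrpl14 had 52.6 and 39.7 FPKM in DDC and 61.9 and 70.8 FPKM in chow, lower in DDC without overlap but not called (log2 change -0.53, adjusted p = 0.271). Mrpl2, Mrpl14 and Mrpl30 were the 3 of 25 named heavy polysome calls kept under every alternative.

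On monosomes the lowest adjusted p values were those of Mrps14, Mrpl15, Mrpl13 and Mrps35. Mrps14, a conserved protein of the small-subunit head, had 17.2 and 15.8 FPKM in DDC monosomes, against 49.8 and 58.8 FPKM in chow monosomes (log2 change -1.66, adjusted p = 0.00012). Mrpl13 had 24.3 and 35.4 FPKM in DDC monosomes, against 96.1 and 112 FPKM in chow monosomes (log2 change -1.79, adjusted p = 0.000241). Mrps35 had 19.7 and 28.3 FPKM in DDC monosomes, against 83.8 and 83.0 FPKM in chow monosomes (log2 change -1.78, adjusted p = 0.00029). In these 3 genes the groups were far apart. With only protein-coding transcript models counted, these 3 were no longer called, and 11.2% of the FPKM of Mrps14 and 7.0% of that of Mrps35 was on such models.

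Mrps18b was the 1 message that rose, on monosomes. It had 59.5 and 65.1 FPKM in DDC monosomes, against 25.6 and 32.0 FPKM in chow monosomes (log2 change 1.09, SE 0.25, adjusted p = 0.00518), and it was not called without the 4 chow libraries numbered 1. In cytoplasm its 40.3 and 31.3 FPKM in DDC also lay above the 21.0 and 24.3 FPKM in chow, but it was not called (log2 change 0.63, adjusted p = 0.0928). On heavy polysomes the values overlapped, with 116 and 154 FPKM in DDC and 168 and 123 FPKM in chow. Mammals have 3 proteins of this bacterial family, placed at different sites. Mrps18c, which takes the site of the bacterial protein, fell on monosomes, with 18.3 and 37.3 FPKM in DDC against 74.5 and 81.6 FPKM in chow (log2 change -1.54, adjusted p = 0.00371), and on light polysomes (log2 change -1.46, adjusted p = 0.0062). Mrps18a of the large subunit was called in no pool and had 160 and 178 FPKM in DDC heavy polysomes, against 234 and 230 FPKM in chow heavy polysomes (log2 change -0.46, adjusted p = 0.17). Mrps18b and Mrps18c were thus called in opposite directions on monosomes.

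**Figure D2:**
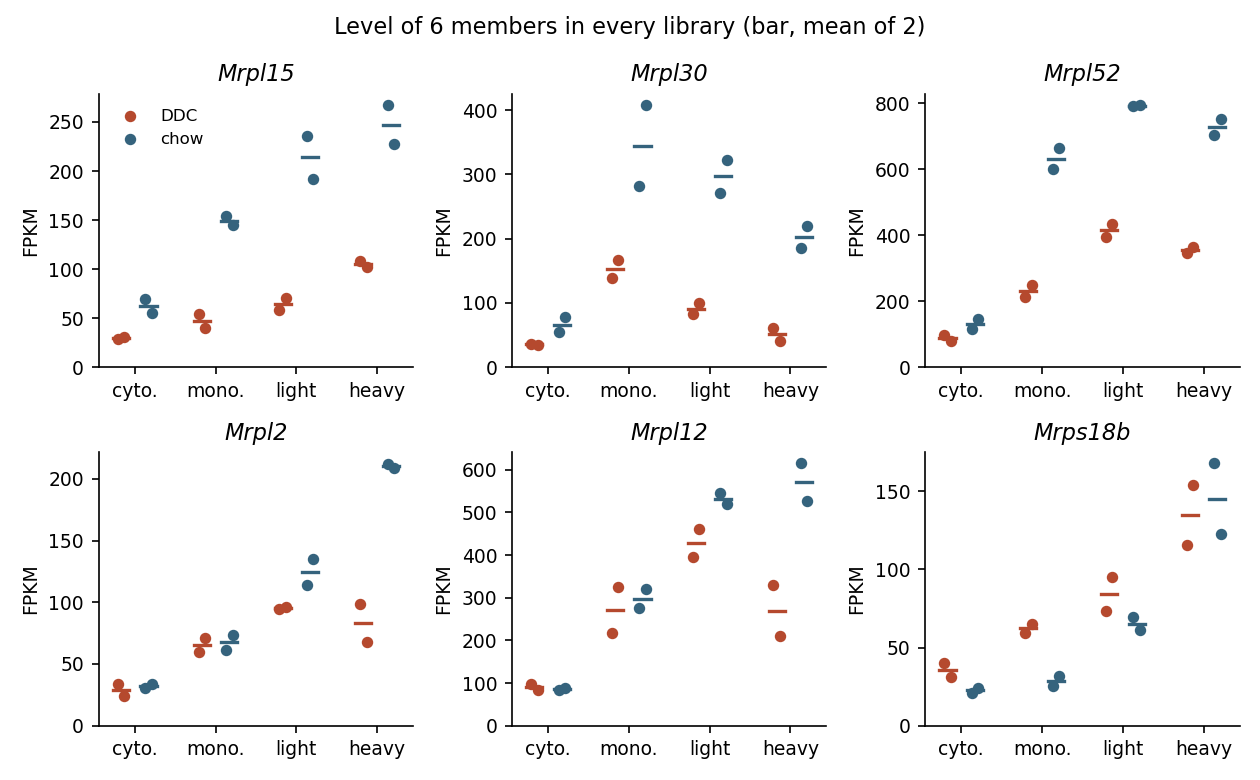
FPKM of Mrpl15, Mrpl30, Mrpl52, Mrpl2, Mrpl12 and Mrps18b in each of the 16 libraries (points), by pool, with DDC beside chow. Mrpl15 and Mrpl30 were lower in DDC in every pool, Mrpl2 and Mrpl12 were called on heavy polysomes alone, and Mrps18b was called higher in DDC on monosomes.

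Other members with a known part in mitochondrial disease or in a defined step were mostly not called. Mrps16, Mrps22 and Mrps2, in which mutations cause human respiratory chain deficiency, were called in no pool. Mrps16 had 441 and 303 FPKM in DDC heavy polysomes and 537 and 597 FPKM in chow heavy polysomes (log2 change -0.63, adjusted p = 0.0688), while Mrps22 had 7.93 and 17.5 FPKM against 18.7 and 27.4 FPKM in the same pools (log2 change -0.88, adjusted p = 0.149). Mrps2 had 12.7 and 14.9 FPKM in DDC heavy polysomes and 18.2 and 15.1 FPKM in chow heavy polysomes (log2 change -0.25, adjusted p = 0.605). The DDC values lay below the chow values in each case. Mrpl3 and Mrpl44, also known from cardiomyopathy families, were called lower on light polysomes, with log2 changes of -0.75 (adjusted p = 0.0432) and -0.87 (adjusted p = 0.0165), and neither call was kept without the chow light polysome library numbered 1 or without DDC light polysome library 1, nor that of Mrpl3 without the chow library numbered 2. Mrps12, the decoding-site protein, was called lower on heavy polysomes with 112 and 99.3 FPKM in DDC against 193 and 181 FPKM in chow (log2 change -0.82, adjusted p = 0.0494), and leaving out any 1 of the 4 libraries ended the call. Mrpl58, a peptidyl-tRNA hydrolase built into the large subunit, and Mrps30 were called in no pool. On heavy polysomes Mrpl58 had 178 and 109 FPKM in DDC and 246 and 224 FPKM in chow (log2 change -0.75, adjusted p = 0.106), and Mrps30 had 27.2 and 39.0 FPKM in DDC and 55.4 and 43.9 FPKM in chow (log2 change -0.58, adjusted p = 0.173). Mrps36 had 15.7 and 12.3 FPKM in DDC heavy polysomes, against 26.5 and 23.1 FPKM in chow heavy polysomes (log2 change -0.79, adjusted p = 0.0373), a call lost without either chow library or without DDC library 2.

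The next comparison sets the gradient pools against each other within a diet. With the deposited scaling, most messages had a higher FPKM on heavy polysomes than on monosomes in both diets. FPKM is taken per sequenced library, so this is a level relative to other messages and not a share of a message's copies. Placement below means this relative level. In DDC, 53 of the 78 messages were called higher on heavy polysomes than on monosomes and 5 were called lower, against 18.2% and 14.5% of all genes tested. In chow, 56 were called higher and 3 lower, against 23.7% and 21.1% of all genes. The median log2 change was 1.15 in DDC and 1.31 in chow, and 0.00 over all genes in each diet. Called higher in both diets were 46 genes and called lower in both were 3, Mrpl18, Mrpl30 and Mrpl42. The share of all genes called in both diets was not counted. With library totals made equal the calls were 31 higher and 12 lower in DDC and 34 and 12 in chow, and with quantile normalization 39 and 10 in DDC and 38 and 11 in chow. Equal totals moved the median of all genes to -0.37 in both diets, and the family stood 0.96 above it in DDC and 0.92 in chow. Without the 4 chow libraries numbered 1, 32 were called higher in chow.

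Mrps28 was the most strongly placed on heavy polysomes. It encodes a conserved small-subunit protein. In DDC it had 166 and 137 FPKM on heavy polysomes, against 13.9 and 16.6 FPKM on monosomes (log2 change 3.23, SE 0.22, adjusted p = 3.23e-05). In chow it had 178 and 201 FPKM on heavy polysomes, against 11.6 and 13.4 FPKM on monosomes (log2 change 3.82, SE 0.22, adjusted p = 1.46e-06). The groups were far apart in both diets. Mrps34, a mitochondria-specific small-subunit protein, averaged 494 ± 75 FPKM on DDC heavy polysomes and 111 ± 25 FPKM on DDC monosomes, and 644 ± 50 FPKM on chow heavy polysomes and 96.0 ± 9.6 FPKM on chow monosomes (SD, n = 2 each). Its log2 changes were 2.15 in DDC and 2.73 in chow. Mrpl22, which lines the exit tunnel of the large subunit, had log2 changes of 2.47 in DDC and 3.58 in chow. Mrpl46 had 2.46 in DDC and 2.13 in chow, and Mrpl16 had 2.32 in DDC. Mrpl40, Mrpl24, Mrpl27 and Mrpl44 had log2 changes of 1.71 to 2.06 in DDC, and Mrpl38, Mrpl39, Mrps5, Mrpl28 and Mrps18b of 2.05 to 2.53 in chow.

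Mrpl18, Mrpl42 and Mrpl30 were placed the other way. Mrpl42 had 91.0 and 39.8 FPKM on DDC heavy polysomes, against 243 and 411 FPKM on DDC monosomes (log2 change -2.37, adjusted p = 0.000464). In chow it had 99.3 and 90.9 FPKM on heavy polysomes, against 322 and 439 FPKM on monosomes (log2 change -1.97, adjusted p = 0.000744). Mrpl18 had a log2 change of -1.85 in DDC (adjusted p = 0.000379) and of -2.04 in chow (adjusted p = 9.25e-05). Mrpl30 had a log2 change of -1.58 in DDC (adjusted p = 0.00123) and of -0.74 in chow (adjusted p = 0.0441). Mrps24 and Mrps21, both conserved small-subunit proteins, were called lower in DDC, where Mrps24 averaged 52.7 FPKM on heavy polysomes and 169 FPKM on monosomes and Mrps21 103 and 213 FPKM. Their log2 changes in chow were -0.69 and -0.36 without a call. The call of Mrps21 was lost without DDC monosome library 2 or DDC heavy polysome library 2, and that of Mrpl30 in chow without the chow monosome library numbered 2 or either chow heavy polysome library. Heavy polysome and monosome values of Mrpl18, Mrpl42 and Mrpl30 did not overlap in either diet.

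Placement of single messages was alike in the diets. Across the 78 genes the log2 changes of heavy polysomes over monosomes in DDC and in chow had a Pearson r of 0.825, and those of heavy over light polysomes had an r of 0.847. These are descriptions over genes, which are not independent replicates, and the diets share no library in them. The highest fraction of the 3 was the same in both diets for 62 of the 78 genes. In DDC, 51 genes had their highest mean on heavy polysomes, 22 on light polysomes and 5 on monosomes. In chow the counts were 49, 28 and 1, the 1 on monosomes being Mrpl30. This order of the pools depended on the scaling. With equal library totals the counts were 37, 35 and 6 in DDC and 36, 37 and 5 in chow. As a share of library FPKM the 78 genes were highest on light polysomes, at 0.952% and 0.919% in DDC and up to 1.17% in chow, against 0.694% and 0.733% on DDC heavy polysomes and 0.824% and 0.840% on chow heavy polysomes.

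**Figure D3:**
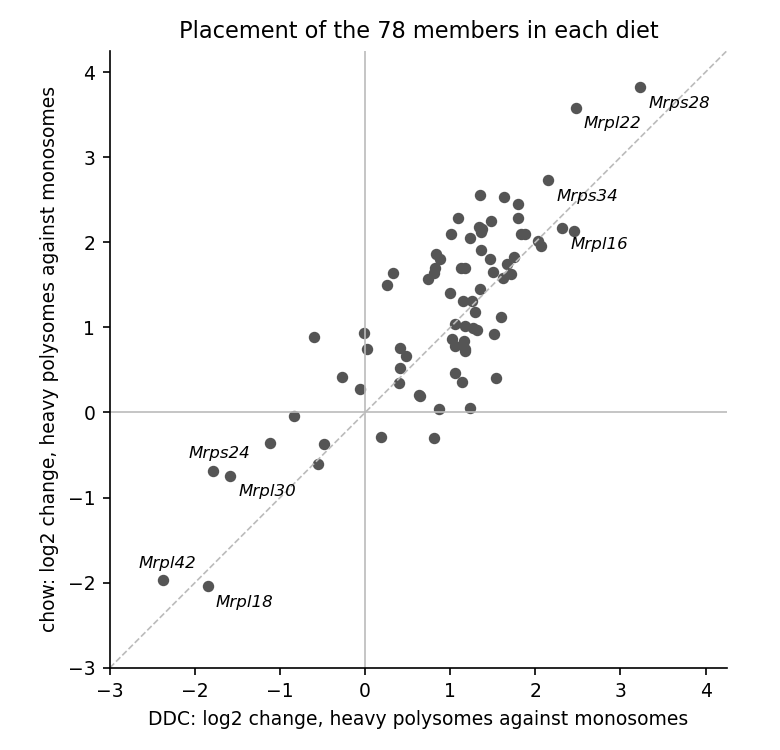
Log2 change of heavy polysomes over monosomes for the 78 genes (points), with DDC on the horizontal axis and chow on the vertical axis; the dashed line marks equal values. The points follow the line with an r of 0.825, with Mrps28 at the top and Mrpl18 and Mrpl42 at the bottom.

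Whether the diet changed this placement was tested as a difference of differences. For heavy polysomes against monosomes, 0 of the 78 genes passed in limma, where 0.996% of all genes were called higher and 0.902% lower. At an unadjusted p under 0.05, 14 were lower and 5 were higher, a count with no share of all genes beside it. The median was -0.20 against -0.03 over all genes. The direction of the median was not kept: it turned to 0.03 with equal library totals, where it was 0.03 over all genes too, and to 0.03 with quantile normalization. For heavy polysomes against cytoplasm, 0 passed, where 0.0596% of all genes were called higher and 0.0426% lower. At an unadjusted p under 0.05, 14 were lower and 0 higher, again with no share of all genes beside them. The median was -0.48 against -0.02 over all genes, and 72 of the 78 values were negative. With equal library totals that median stood 0.30 below the median of all genes. With fractions of 1 preparation as a block, 1 gene was called higher and 3 lower for heavy polysomes against monosomes, and without DDC heavy polysome library 1 3 were called lower.

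Heavy against light polysomes gave calls in both directions. In DDC, 22 messages were called higher on heavy polysomes and 10 lower, against 12.1% and 10.5% of all genes. In chow, 31 were higher and 7 lower, against 16% and 15.2%. Medians were 0.47 in DDC and 0.52 in chow. These counts were sensitive to scaling: with equal totals they were 10 higher and 22 lower in DDC and 7 and 25 in chow, where the medians turned to -0.02 and -0.14 but stood 0.28 and 0.18 above the median of all genes, and with quantile normalization 18 and 16 in DDC and 12 and 18 in chow. Called lower in both diets were 4 genes, Mrpl18, Mrpl33, Mrpl42 and Mrps21, and called higher in both were 16. Here too the share of all genes called in both diets was not counted. Mrpl33, the shortest protein of the family, had 42.6 and 43.4 FPKM on DDC heavy polysomes, against 96.8 and 134 FPKM on DDC light polysomes (log2 change -1.39, adjusted p = 0.0024). In chow Mrpl33 had 84.7 and 85.5 FPKM on heavy polysomes, against 288 and 309 FPKM on light polysomes (log2 change -1.80, adjusted p = 0.000328). At the other end Mrps27, a small-subunit RNA-binding protein, had log2 changes of 2.00 in DDC (adjusted p = 0.00276) and 1.88 in chow (adjusted p = 0.00223). Leaving out DDC light polysome library 1 gave 13 higher and 5 lower calls in DDC, 5 were lower without DDC light polysome library 2, and 4 were lower without DDC heavy polysome library 2. In chow, 14 were higher without light polysome library 2, 17 without heavy polysome library 1 and 20 without light polysome library 1, and 4 were lower without light polysome library 1, light polysome library 2 or heavy polysome library 2. Without the 4 chow libraries numbered 1, 4 were higher and 2 lower in chow and 4 lower in DDC.

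The longest coding sequences of the 78 genes ran from 65 to 442 codons, with a median of 194. The 26 genes of 65 to 160 codons had a median log2 change of heavy over light polysomes of -0.24 in DDC and -0.35 in chow. The 26 genes of 166 to 251 codons had medians of 0.65 in DDC and 0.88 in chow, and the 26 genes of 252 to 442 codons had 0.80 in DDC and 0.78 in chow. Across the 78 genes, log2 codon number and this log2 change had a Pearson r of 0.584 and a Spearman rho of 0.583 in DDC, and 0.515 and 0.496 in chow. Over all protein-coding genes tested, r was 0.068 in DDC (n = 10835) and 0.079 in chow (n = 10836). These values share the libraries and are descriptions across genes. The fall on heavy polysomes in DDC over chow had medians of -0.84, -0.51 and -0.57 in the short, middle and long groups. Mrpl18, the lowest of the 78 in chow, has a coding sequence in the middle group, while the lowest in DDC was in the short group.

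**Figure D4:**
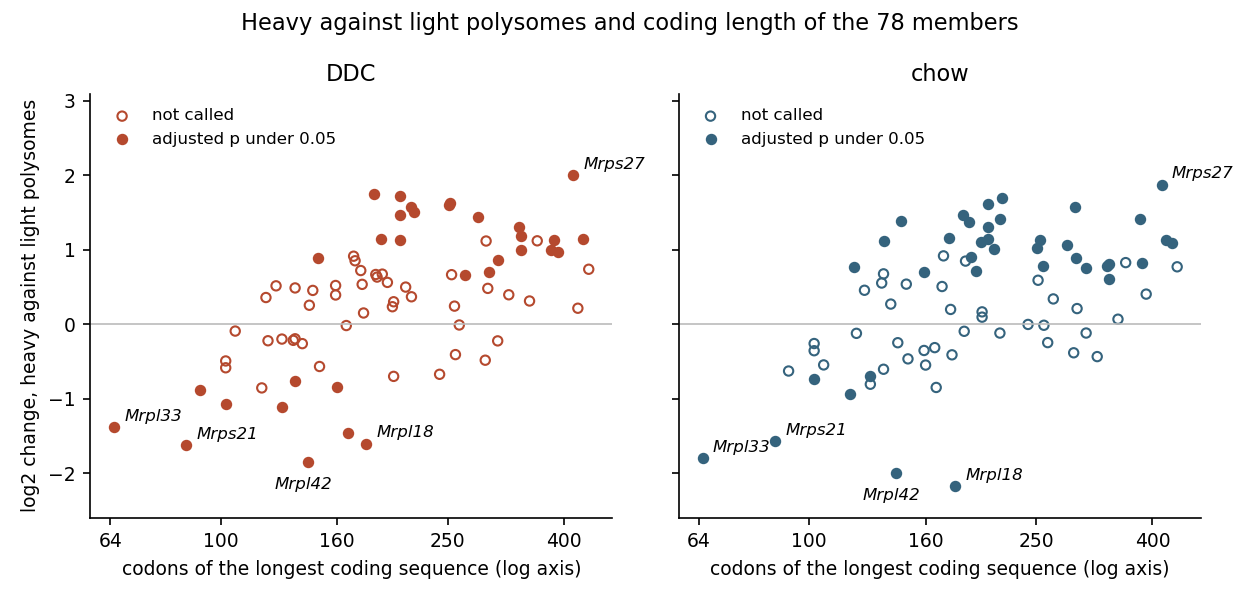
Log2 change of heavy over light polysomes against codons of the longest coding sequence (log axis) for the 78 genes, in DDC at the left and chow at the right; filled points were called by limma. Short messages such as Mrpl33 and Mrps21 lie low and the long Mrps27 lies high in both diets.

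Members lie on 17 chromosomes, with 11 on chromosome 11 and 8 on chromosome 17. A neighbouring gene starts on the opposite strand within 500 bases of the start of 17 members (21.8%), against 1063 of the 10861 protein-coding genes tested (9.8%). Pairs that moved alike and pairs that moved apart were both present. On heavy polysomes the log2 change of DDC over chow was -1.99 for Mrpl30 and 0.29 for its neighbour Mitd1. It was -0.77 for Mrpl37 and -1.29 for its neighbour Cyb5rl. Whether neighbours move with the members was not tested. RefSeq promoters of 250 bases before to 50 bases after the start (GRCm38.p6) were at hand for 69 members. The letters CCGGAAG, a core bound by ETS factors such as GABPA, an activator of nuclear genes for mitochondrial proteins, were found on either strand in 26 of the 69 (37.7%), against 20.7% of 8544 other protein-coding genes. The letters AAGATGGCG, part of the sequence bound by YY1, were in 8 (11.6%, against 3.7%), and CGCATGCGC, part of that bound by NRF1, in 7 (10.1%, against 4.1%). The YY1 and NRF1 letters were shortened after a first search with longer ones, so these shares include partial matches. For CACGTG the shares were 7.2% and 11.9%, for TGACGTCA 2.9% and 3.5%, and for CCAAT 39.1% and 42.6%. A match is a description of letters and not a bound site. Both strands were searched, so the ETS core was also read as CTTCCGG, and the NRF1 letters can match on both strands at places that overlap.

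Of the 26 members with the ETS core, 23 had one no more than 100 bases before the start or after it. The windows below are printed because they belong to messages described above and show how the core sits close to the start. Capitals mark the ETS core in the windows of Mrpl27 to Mrps18a, then the YY1 letters in Mrps18a and the NRF1 letters in Mrpl9 and Mrpl39, and all are read 5′ to 3′ on the strand of the gene.
Mrpl27 (chr11:94653725-94653754, plus strand): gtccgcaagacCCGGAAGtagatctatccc
Mrpl48 (chr7:100583146-100583175, minus strand): ggttttaaaaaCTTCCGGaaccaagatgct
Mrpl52 (chr14:54426851-54426880, plus strand): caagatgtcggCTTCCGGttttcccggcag
Mrps22 (chr9:98601672-98601701, minus strand): aacctctcgagCCGGAAGttgctctatcga
Mrps18a (chr17:46110967-46110996, plus strand): acacccctgctCCGGAAGcggaagtgcaca
Mrps18a (chr17:46111005-46111034, plus strand): ggtgcgttccAAGATGGCGgccctcagggc
Mrpl9 (chr3:94443299-94443328, plus strand): ggcgcagctgCGCATGCGCggggtccttct
Mrpl39 (chr16:84735349-84735378, minus strand): aggagaggcgCGCATGCGCccccgcgtggc

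The core lay 55 bases before the start in Mrpl27, 34 in Mrpl48, 47 in Mrpl52, 11 in Mrps22 and 26 in Mrps18a. Of these, Mrpl27, Mrpl48 and Mrpl52 fell in all 3 ribosome pools in DDC, and Mrps22 and Mrps18a were called in none. The 26 members with the core had a median log2 change of DDC over chow on heavy polysomes of -0.77, and the 43 without it -0.65. In cytoplasm the medians were -0.17 with the core and -0.09 without it.

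Other genes of mitochondrial translation were counted against the same background shares of all genes called lower, which were 10.9% on heavy polysomes, 13.5% on light polysomes, 15.9% on monosomes and 9.68% in cytoplasm. Of 5 ribosome proteins with other names, 2 fell on heavy polysomes and 0 rose (median -0.73), and 1 was called there without the 4 chow libraries numbered 1. Chchd1, a small-subunit protein, had 101 ± 7.62 FPKM in DDC heavy polysomes and 243 ± 39.7 FPKM in chow heavy polysomes (SD, n = 2 each), a log2 change of -1.25 (adjusted p = 0.00149). Aurkaip1 also fell (log2 change -1.24, adjusted p = 0.0155). Dap3, a GTP-binding small-subunit protein, had 68.0 and 114 FPKM in those groups and was not called (log2 change -0.73, adjusted p = 0.0799), and Ptcd3 was called lower on light polysomes and monosomes (log2 changes -1.14 and -1.24).

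Of 15 translation factors and messenger-handling proteins, 4 fell on heavy polysomes, 6 on light polysomes, 4 on monosomes and 1 in cytoplasm, and 1 rose, on monosomes. These were 26.7%, 40% and 26.7% of the list in the ribosome pools and 6.67% in cytoplasm. The lower calls in the same pools were 4, 4, 5 and 0 without the 4 chow libraries numbered 1, and 0 were higher. Lrpprc and Slirp, partners that stabilise mitochondrial messenger RNA, fell together on heavy polysomes. Lrpprc averaged 7.56 FPKM in DDC and 18.2 FPKM in chow (log2 change -1.16, adjusted p = 0.00125), and Slirp 30.2 FPKM in DDC and 115 FPKM in chow (log2 change -1.84, adjusted p = 0.00177). Slirp was also called lower in cytoplasm (log2 change -1.17, adjusted p = 0.024), and Lrpprc was not (log2 change -0.51, adjusted p = 0.083). Mtrf1l, a release factor, fell on heavy polysomes by 1.89 on the log2 scale (adjusted p = 0.00261), and Mtif2, an initiation factor, on light polysomes by 1.08 (adjusted p = 0.00495). The elongation factors Tufm and Tsfm were not called in any pool, with log2 changes on heavy polysomes of -0.13 and 0.03, while Gfm1, the translocase, rose on monosomes with 9.53 FPKM in DDC against 4.49 FPKM in chow (log2 change 0.91, adjusted p = 0.0164). Oxa1l, the membrane insertase, had -0.30 on heavy polysomes and was not called.

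Of 26 assembly factors, 3 fell (11.5%, near the background) and 1 rose on heavy polysomes (median -0.45), and none of 25 was called there without the 4 chow libraries numbered 1. Nsun4, an RNA methyltransferase that joins the subunits, fell by 0.87 on the log2 scale, Mrm3 by 1.26 and Mtg2 by 0.81, and Mettl15 rose by 0.96. Mettl15 was near the floor there, averaging 1.05 FPKM in DDC heavy polysomes and 0.048 FPKM in chow heavy polysomes. Eral1, the small-subunit RNA chaperone, was not called (log2 change -0.46, adjusted p = 0.304). Mpv17l2, a protein of large-subunit assembly, was higher in DDC monosomes with 140 ± 22.7 FPKM against 38.7 ± 13.0 FPKM in chow monosomes (log2 change 1.86, adjusted p = 0.00885) and in DDC cytoplasm (log2 change 1.44, adjusted p = 0.045). Of 19 mitochondrial tRNA synthetases and related enzymes tested, 0 were called on heavy polysomes (median -0.20). On monosomes Lars2 rose, with 128 ± 38.8 FPKM in DDC against 7.39 ± 3.12 FPKM in chow (log2 change 3.96, adjusted p = 0.000938), and so did Vars2 (log2 change 2.58). Lars2 was not called in the other pools, and in cytoplasm it averaged 9.67 FPKM in DDC and 6.33 FPKM in chow. On heavy polysomes it varied widely, at 413 ± 337 FPKM in DDC and 222 ± 199 FPKM in chow. Nars2 fell on monosomes (log2 change -1.26), on light polysomes (-1.62) and in cytoplasm (-1.15). On light polysomes Yars2 (log2 change -1.33) and Gatb (-1.15) fell and Vars2 rose (1.68).

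The list of mitochondrial DNA transcription and upkeep also held nuclear transcription factors, among them Nrf1, Gabpa, Esrra, Yy1 and Ppara. Of its 15 tested genes, 4 fell on heavy polysomes, 5 on light polysomes, 5 on monosomes and 4 in cytoplasm, and 0 rose in any pool. These were 26.7%, 33.3%, 33.3% and 26.7% of the list, and without the 4 chow libraries numbered 1 the counts were 1, 3, 4 and 1. Ppara was among the lower calls in all 4 pools, and Yy1 among those on light polysomes and monosomes. Tfam, which packages and transcribes mitochondrial DNA, had 12.4 ± 0.78 FPKM in DDC cytoplasm and 23.9 ± 3.39 FPKM in chow cytoplasm (log2 change -0.89, adjusted p = 0.0214). Messages that mitochondria themselves make were poorly measured, with 10 of 13 tested on heavy polysomes. Of these, mt-Nd1 was the 1 called, with 2749 FPKM in DDC against 758 FPKM in chow (log2 change 1.75, adjusted p = 0.0045), and it was listed at 0 in both DDC libraries of cytoplasm and of monosomes. It was not called without the 4 chow libraries numbered 1.

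The proteins of cytosolic ribosomes and the Nduf subunits of complex I serve as nearby families. Of 37 Nduf genes, 30 were called lower on heavy polysomes (median -1.26), 28 on light polysomes, 24 on monosomes and 16 in cytoplasm (median -0.76), and 0 rose. The lower calls were 14, 14, 13 and 2 without the 4 chow libraries numbered 1. The 77 genes for proteins of cytosolic ribosomes gave 3 higher and 2 lower calls on heavy polysomes (median 0.23), and 64 of them fell on monosomes (median -1.40), or 0, 0 and 40 without those 4 libraries. For heavy polysomes against monosomes the cytosolic family had 29 higher and 8 lower calls in DDC (median 0.59), and 2 higher and 57 lower calls in chow (median -1.09). Of its 77 genes, 31 passed the test of the diet difference in that placement, all upward, against 0 of the 78 mitochondrial ones, and 0 of the 77 did without the 4 chow libraries numbered 1. Whether the families differ as wholes was not tested.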

How the data were processed

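Polyadenylated RNA was measured in 16 libraries of 8 groups. Reads were aligned to GRCm38/mm10 with STAR 2.4.2a, after bcl2fastq 2.17.1.14 and Trimmomatic, and Cuffnorm and Picard 1.119 were also used, per the submitters' processing notes. The authors deposited FPKM for each transcript, which Cuffnorm had scaled across the libraries. The counting strand is not given in the sources used here, so reads of overlapping genes may be shared. Assuming 250-base fragments, the FPKM of 1 fragment was fitted in each library so that low values came out as whole fragments. With it, low values of 90.0% to 94.0% of the transcripts checked were whole within 0.1, a share that the fitting itself raises. The estimated fragments given above rest on this fitted value, and sequenced depth was not read from it.

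Transcripts were joined to GENCODE M21 (116728 of 117592, 99.27%) and FPKM were summed per gene. The filter of 1 FPKM or more in at least 2 libraries left 11790 genes. Genes at 0 in both libraries of a group but at 100 FPKM or more elsewhere, 49 in number and none of them a Mrpl or Mrps gene, were set to missing there (decided after seeing the files). Log2(FPKM + 1) was modelled by 8 group means (limma 3.58.1, R 4.3.3), using a variance trend. There were 8 residual and 3.905 prior degrees of freedom. The pseudocount of 1 understates changes of low genes. The 10 comparisons were each fitted under 11 alternatives, and the fit was tested on simulated data. Promoter sequences are RefSeq's.

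Members and lists were chosen with earlier results of these data known. Every member was tested. Those named with values were, per comparison, the 8 called with the lowest p in each direction, the 3 highest and 3 lowest in cytoplasm, and 14 fixed members; in other lists the 3 called with the lowest p and 10 fixed genes. Others named were chosen after their values were seen.

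Per the labels, chow ribosome pools came from preparations CH1_CH2 and CH3_CH4 and DDC ribosome pools from B and C. Numbers thus pair ribosome pools within a diet and not the diets. Cytoplasm was labelled CH1 and CH3 in chow and C2 and D2 in DDC. Neither DDC cytoplasmic library carries the label B or C, so comparisons with DDC cytoplasm are between differently labelled preparations. Replicate differences across genes had correlations of 0.357 to 0.749 between chow pools, 0.305 to 0.365 between DDC ribosome pools, -0.05 to 0.161 between DDC cytoplasm and DDC pools, and -0.094 to 0.07 between the diets.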

Additional observations from a re-analysis of the deposited data

How the results depend on the processing

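Counts are given as members called. With library totals made equal, DDC over chow gave 3 higher and 3 lower in cytoplasm, 5 higher on monosomes, 1 higher and 20 lower on light polysomes, and 1 higher and 10 lower on heavy polysomes. Heavy polysomes over monosomes then gave 31 higher and 12 lower in DDC and 34 and 12 in chow, and heavy over light polysomes 10 and 22 in DDC and 7 and 25 in chow. Of single genes, heavy over monosomes in chow turned to -0.75 for Mrpl13, -0.0748 for Mrpl15, -0.13 for Mrpl34, -0.0323 for Mrpl36 and -0.59 for Mrpl52. With quantile normalization DDC over chow gave 2 higher and 12 lower in cytoplasm, 2 higher on monosomes and 13 lower on heavy polysomes. Heavy over monosomes gave 10 lower in DDC and 11 in chow, heavy over light polysomes 16 lower in DDC and 12 higher and 18 lower in chow, and the diet difference of heavy over monosomes 2 higher. There, heavy over monosomes in chow turned to -0.15 for Mrpl12, -0.77 for Mrpl13, -0.25 for Mrpl15, -0.34 for Mrpl34 and -0.59 for Mrpl52, and in DDC to -0.20 for Mrpl52. The cause was not tested.

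Without a filter, or with protein-coding transcripts only, 2 rose on monosomes. Without the 4 chow libraries numbered 1, DDC over chow gave 0 lower in cytoplasm, 0 higher and 14 lower on monosomes, 10 lower on light and 5 on heavy polysomes, with 32 higher for heavy over monosomes in chow, 4 higher and 2 lower for heavy over light polysomes in chow, and 4 lower in DDC. With only the groups compared in the fit, 3 were higher and 12 lower in cytoplasm, 14 lower on monosomes, 4 lower on heavy polysomes, and 5 higher and 0 lower for heavy over light polysomes in DDC; fewer libraries then set the spread.

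With preparation as a replicate block, 1 was higher and 12 lower in cytoplasm, 2 higher on monosomes, and for the diet difference of heavy over monosomes 1 higher and 3 lower. Lower calls on heavy polysomes were 40. The DDC cytoplasmic libraries had no block, and no other count moved by over 1.5 times.

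Leaving out each library in turn gave, for DDC over chow, 0 to 1 lower in cytoplasm, 1 to 2 higher and 16 to 21 lower on monosomes, 0 to 1 higher and 16 to 27 lower on light polysomes, and 12 to 26 lower on heavy polysomes. Heavy over monosomes gave 42 to 55 higher and 4 to 7 lower in DDC and 46 to 50 and 2 to 3 in chow. Heavy over light polysomes gave 13 to 24 and 4 to 10 in DDC and 14 to 23 and 4 to 5 in chow. The diet difference of heavy over monosomes gave 0 to 3 lower. A lone library was assumed to vary like the other groups. A filter of 5 FPKM, a pseudocount of 0.1 and no variance trend moved no count by over 1.5 times.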
